A study of Mus musculus with 21 samples.

Results

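The nuclear genes for the subunits of the mitochondrial respiratory chain and ATP synthase were followed after injury in the tibialis anterior, a lower leg muscle that was measured whole. Members were genes whose symbols follow the naming of complexes I to V, leaving out pseudogene symbols. These were the Nduf series, Sdha to Sdhd, Uqcr genes and Cyc1, Cox5 to Cox8 genes with the letters a to c, and Atp5 genes. Cox4i1, Cox4i2 and Ndufab1 do not match this naming rule. Cox7c and Ndufb4 match it but share their probe sets with another symbol, so they were left out. Where a gene had several probe sets, the one with the highest mean was taken. The rule found 80 of the 19752 genes on the array, 35 for complex I, 4 for complex II, 9 for complex III, 15 for complex IV and 17 for complex V. Of these, 79 passed the filter on low values, and Cox7b2, a testis isoform, lay below it. Ndufa4 is counted with complex I by its symbol, although its protein is now placed in complex IV.

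The mice were male, 8 weeks old and on a C57BL/6 background, and carried the genotype Foxp3-DTR+ or Foxp3-DTR-. DTR is the diphtheria toxin receptor, placed in DTR+ mice in cells that express Foxp3, the transcription factor of regulatory T cells, so that toxin is meant to remove those cells. Mice of both genotypes got diphtheria toxin on alternate days starting at day 0, when cardiotoxin, a snake venom toxin that destroys muscle fibres and leaves their stem cells able to rebuild them, was injected. By title a muscle is either CTx or xINJ, although further labels give cardiotoxin injury for both kinds, so xINJ stands here only for a title. DTR- mice gave 3 CTx and 3 xINJ samples at day 4 and again at day 8. DTR+ mice gave 2 CTx samples and 1 xINJ sample at day 4, 3 CTx and 2 xINJ samples at day 8, and 1 sample labelled as control at day 0. Nothing in the labels tells whether a group's samples were separate animals, and the p-values therefore cover only their spread, possibly a technical one. The 21 arrays had median intensities of 133.0 to 159.5, and their number limits the precision. DTR- CTx day 4 replicate 1 had the lowest mean log2 level of fast fibre markers of all samples, and DTR- xINJ day 4 replicate 1 carries a time label of day 8 against its title, so the main counts are also given without both.

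Complex I (NADH dehydrogenase) and complex II (succinate dehydrogenase) pass electrons to ubiquinone, complex III (cytochrome bc1) passes them on to cytochrome c, and complex IV (cytochrome c oxidase) passes them to oxygen. Complexes I, III and IV pump protons across the inner mitochondrial membrane, and complex V (ATP synthase) uses the gradient to make ATP. Most subunits are encoded in the nucleus, and complex IV has several subunits with a heart and skeletal muscle isoform and a widely expressed isoform. Mature fibres of mouse muscle carry the muscle isoforms. The transcription factors NRF1, GABP (an ETS family factor), ERR alpha and YY1 are known regulators of such genes.

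Promoters of 5 members are shown because these members differed in opposite directions between CTx and xINJ muscle, as given below: Cox6a1 and Cox8a, the widely expressed isoforms that rose, Cox7a1 and Cox8b, muscle isoforms that fell, and Sdha, the catalytic subunit of complex II, which fell as well. Each run holds 250 bases before the RefSeq transcription start (GRCm38.p6) and the first 10 after it, read 5' to 3' along the gene. Capitals mark matches on either strand to GCGCA and GCGC with 1 base between them (NRF1), CCGGAAG (ETS), AAGGTCA (ERR) or AAGATGG (YY1). Cox6a1 lies at chr5:115348949-115349208, minus strand. Cox8a lies at chr19:7217607-7217866, minus strand. Cox7a1 lies at chr7:30183921-30184180, plus strand, and Cox8b at chr7:140900437-140900696, minus strand. Sdha lies at chr13:74350231-74350490, minus strand.
Cox6a1: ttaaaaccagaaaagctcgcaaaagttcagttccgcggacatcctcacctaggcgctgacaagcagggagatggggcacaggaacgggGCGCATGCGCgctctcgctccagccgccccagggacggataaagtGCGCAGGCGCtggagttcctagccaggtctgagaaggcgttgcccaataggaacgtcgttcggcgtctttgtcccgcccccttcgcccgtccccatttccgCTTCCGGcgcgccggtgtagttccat
Cox8a: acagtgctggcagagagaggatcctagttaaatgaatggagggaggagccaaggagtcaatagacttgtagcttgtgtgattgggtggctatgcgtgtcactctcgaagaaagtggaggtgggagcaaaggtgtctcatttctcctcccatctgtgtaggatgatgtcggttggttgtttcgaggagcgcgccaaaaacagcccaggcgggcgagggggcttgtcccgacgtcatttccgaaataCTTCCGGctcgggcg
Cox7a1: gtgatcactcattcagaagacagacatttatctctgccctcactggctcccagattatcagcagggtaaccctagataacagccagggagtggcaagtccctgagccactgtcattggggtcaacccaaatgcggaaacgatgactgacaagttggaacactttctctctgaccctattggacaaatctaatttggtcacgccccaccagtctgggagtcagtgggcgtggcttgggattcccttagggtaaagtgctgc
Cox8b: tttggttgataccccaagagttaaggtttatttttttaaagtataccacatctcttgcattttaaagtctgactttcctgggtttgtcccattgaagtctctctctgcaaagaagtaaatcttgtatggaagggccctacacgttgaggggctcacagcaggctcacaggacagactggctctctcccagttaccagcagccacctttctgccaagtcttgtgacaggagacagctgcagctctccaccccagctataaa
Sdha: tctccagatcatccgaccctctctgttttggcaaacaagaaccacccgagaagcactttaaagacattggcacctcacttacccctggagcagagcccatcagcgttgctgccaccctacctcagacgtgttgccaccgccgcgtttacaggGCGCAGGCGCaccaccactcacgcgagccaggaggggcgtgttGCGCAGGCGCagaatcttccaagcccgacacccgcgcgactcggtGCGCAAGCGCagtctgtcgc
The Cox6a1 promoter held the NRF1 letters from positions -162 and -117 and the ETS letters from -16, counted from the start. The Cox8a promoter held the ETS letters from -5, and again from position 32, beyond the printed stretch. The Sdha promoter held the NRF1 letters from -98, -55 and -10. None of the 4 sets of letters was in the window of Cox7a1 or Cox8b, nor in that of Cox7a2, a widely expressed isoform. The other muscle isoform, Cox6a2, had no promoter among the RefSeq promoters used, so it could not be searched. The 5 promoters were picked by how their genes moved.

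Promoters of 66 of the 80 members were in the RefSeq table, each 300 bases long (250 before and 50 after the start). Of these members, 38 had at least 1 of the 4 motifs, so 28 had none. Some genes have several promoters, and a gene counts once, with a match in any of them. The NRF1 letters were found for 24.2% of members, 10.3% of all genes tested and 5.19% of all genes with a promoter in the table. The ETS letters were found for 25.8% of members, 17.8% of genes tested and 9.93% of all. The ERR letters were found for 10.6%, 4.06% and 5.38% of these genes, and the YY1 letters for 15.2%, 7.94% and 7.28%. Of 68 mitochondrial ribosome genes, 19.1%, 36.8%, 5.88% and 19.1% had the NRF1, ETS, ERR and YY1 letters. Matches of different motifs overlapped in 0 member promoters. Among the complexes, the NRF1 letters were found for 6 of 15 genes of complex V, 6 of 31 of complex I and 2 of 3 of complex II. They were found for 1 of 5 genes of complex III and 1 of 12 of complex IV, the last being Cox6a1.

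The first comparison set CTx against xINJ muscle at day 4. In DTR- mice, 62 of 79 subunit genes were lower and 2 were higher in CTx than in xINJ muscle (limma, adjusted p under 0.05). Calls in either direction covered 81.0% of the members against 46.6% of all 13332 genes tested, and of all genes 20.5% were lower and 26.1% higher. The median log2 fold change of the members was -0.69, a 1.61-fold lower level, against -0.02 for all genes tested. These falls are relative to the whole array: with each array centred on 12 fast fibre markers instead, a setting chosen after seeing the data, 3 members were lower and 15 higher, with a median of 0.20 against 0.88 for all genes. The samples of the groups did not overlap for 62 members lower in CTx and 2 higher, where 25.7% and 28.5% of all genes lay apart in these directions. Without both doubted day 4 samples, 58 members were lower and 2 higher.

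**Figure D1:**
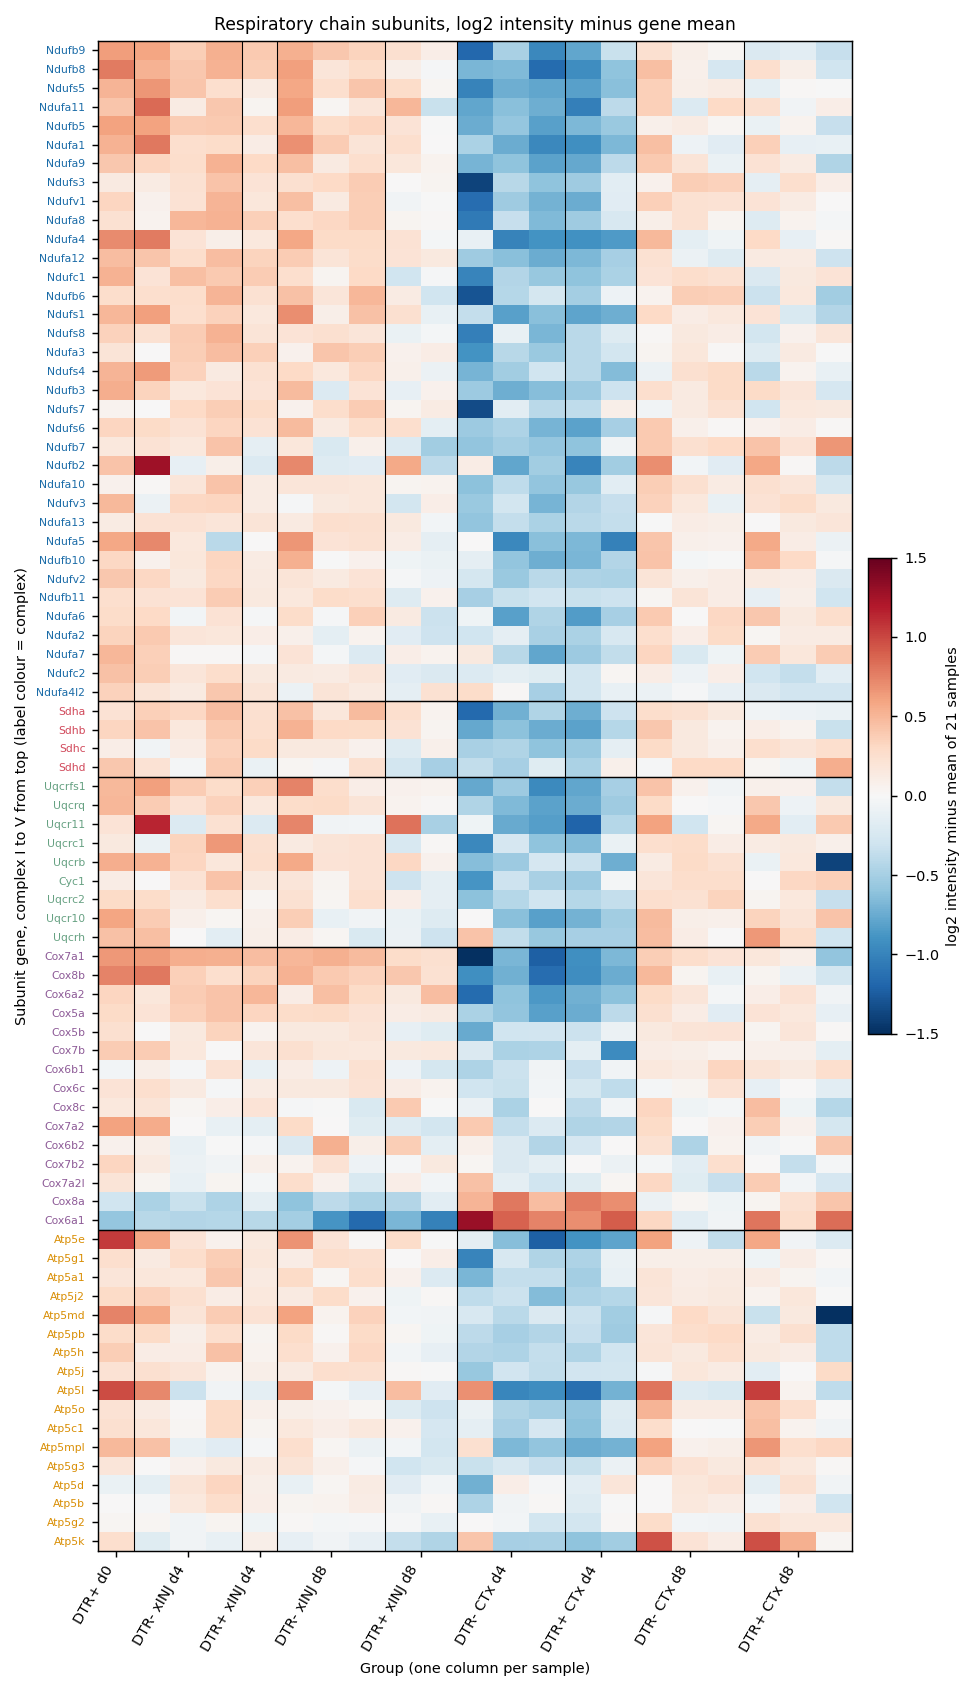
Log2 intensity of the 80 subunit genes (rows, grouped by complex I to V from the top, label colours by complex, ordered by their day 4 change) in the 21 samples (columns, by group), each minus the gene's mean over all samples. On this scale, which fast fibre centring turns for many genes, most genes are blue in the CTx day 4 columns of both genotypes, with 3 to 15 of 80 above their mean in a column. Cox8a and Cox6a1 in complex IV are red in all of these, and Uqcrh, Cox7a2, Cox7a2l, Atp5k and Atp5l are red in DTR- replicate 1.

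Complex I had 32 of 35 members lower at day 4, with a median of -0.88. Its electron input end, the N module that oxidises NADH, had 8 of 9 lower with a median of -0.84, the Q module that reduces ubiquinone had 6 of 6 lower with a median of -0.92, and the proton-pumping membrane arm had 17 of 18 lower with a median of -0.95. Ndufb9, an accessory subunit of the membrane arm, had log2 intensities of 10.90, 11.60 and 11.11 in CTx muscle and 12.67, 12.45 and 12.61 in xINJ muscle. All CTx samples lay below all xINJ samples, and the log2 fold change of -1.37 (SE 0.16, limma adjusted p = 1.53e-06) was the largest fall of the complex. Ndufv1, the flavoprotein that accepts electrons from NADH, stood at 10.35, 10.97 and 10.79 against 11.56, 11.71 and 12.01, a log2 fold change of -1.06 (SE 0.17, limma adjusted p = 6.03e-05). Ndufs1, the large iron-sulfur subunit beside it, fell by 1.00 on the log2 scale (SE 0.18). Ndufa4 fell by 1.03 (SE 0.23). The 3 members that did not pass were Ndufb2 at -0.81, whose standard error of 0.37 stands against a median of 0.17 in the complex, Ndufa7 at -0.47, and Ndufa4l2, a paralogue of Ndufa4, at -0.32. Without DTR- CTx replicate 1 these 3 passed as well, at -1.07, -0.72 and -0.49. With all samples kept and the replicate number as a block, Ndufb2 and Ndufa7 also passed (limma adjusted p = 0.000319 and 0.0145). This comparison was not treated as paired, since its same-numbered samples correlated by 0.468, 0.145 and -0.208.

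All 4 genes of complex II, which also belongs to the citric acid cycle, fell. Sdha, which holds the flavin, stood at 10.86, 11.30 and 11.57 in CTx muscle and at 12.38, 12.33 and 12.48 in xINJ muscle, a log2 fold change of -1.15 (SE 0.16, limma adjusted p = 1.02e-05). Its CTx samples all lay below its xINJ samples. Sdhb, the iron-sulfur subunit, stood at 10.70, 10.85 and 10.73 against 11.90, 11.63 and 11.86 and fell by 1.04, and the membrane anchors Sdhc and Sdhd fell by 0.65 and 0.54. The call of Sdhd ended without DTR- CTx replicate 2 (adjusted p = 0.0735), without xINJ replicate 3 (0.085), and without both doubted samples (0.0878). Complex III had 8 of 9 genes lower with a median of -0.82. Uqcrfs1, the Rieske iron-sulfur protein, stood at 8.92, 9.14 and 8.74 in CTx muscle against 10.30, 10.07 and 9.97 in xINJ muscle, with no overlap, a log2 fold change of -1.18 (SE 0.18, limma adjusted p = 3.04e-05). Cyc1, cytochrome c1, stood at 11.18, 11.76 and 11.58 against 12.07, 12.29 and 12.49 and fell by 0.78. In both genes the groups lay apart. The core proteins Uqcrc1 and Uqcrc2 fell by 0.90 and 0.67. Uqcrh, the hinge protein, did not pass at -0.28 (SE 0.25).

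Complex V had 10 of 17 genes lower and none higher, with a median of -0.52. Its catalytic F1 part had 3 of 5 lower with a median of -0.45, and its membrane and stalk part had 7 of 12 lower with a median of -0.54. Atp5e, the small epsilon subunit of F1, had the largest fall, with 9.48, 8.99 and 8.41 in CTx muscle against 10.21, 9.84 and 9.69 in xINJ muscle and a log2 fold change of -0.96 (SE 0.28, limma adjusted p = 0.00793). Its call ended without CTx replicate 3 (adjusted p = 0.0593). Atp5a1, the alpha subunit, stood at 11.86, 12.19 and 12.19 in CTx muscle against 12.72, 12.71 and 12.95 and fell by 0.71 with no overlap. Atp5b, the catalytic beta subunit, stood at 12.95, 13.37 and 13.43 against 13.40, 13.57 and 13.68, where the groups overlapped, and did not pass (log2 -0.30, SE 0.14, adjusted p = 0.092). It passed with arrays centred on their medians (-0.41, adjusted p = 0.0264). Subunit c of the rotor ring is encoded by 3 genes for the same mature protein. Atp5g1 fell by 0.81 and Atp5g3 by 0.38, and Atp5g2 did not pass at -0.12, with a 95% interval of -0.38 to 0.15. The other members of the complex that did not pass were Atp5d, Atp5k, Atp5l, Atp5md and Atp5mpl, at -0.67 to -0.07. Of these, Atp5l and Atp5mpl passed without DTR- CTx replicate 1 (-1.07 and -0.68). They also passed with all samples kept and the replicate number as a block (limma adjusted p = 0.0275 and 0.018), in a comparison not treated as paired.

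Complex IV was split. Of its 14 genes tested, 8 were lower and 2 higher, with a median of -0.35. The 3 muscle isoforms fell most, with a median of -1.40. Cox7a1 stood at 10.72, 11.89 and 11.36 in CTx muscle against 13.22, 13.13 and 13.11 in xINJ muscle. The groups did not overlap, and the 3.56-fold fall (log2 -1.83, SE 0.22, limma adjusted p = 1.78e-06) was the largest of any member. Cox8b stood at 11.79, 11.99 and 11.57 against 13.50, 13.07 and 12.97, a 2.64-fold fall (log2 -1.40, SE 0.17). Cox6a2 stood at 11.49, 12.04 and 11.79 against 12.82, 13.03 and 13.08, a 2.30-fold fall (log2 -1.2, SE 0.16). These muscle isoforms too lay apart in the groups. The widely expressed partners went the other way or did not pass. Cox6a1 stood at 10.05, 9.63 and 9.50 in CTx muscle against 8.33, 8.31 and 8.32 in xINJ muscle, a 2.65-fold rise (log2 1.41, SE 0.20, limma adjusted p = 9.24e-06) with no overlap. Cox8a stood at 11.25, 11.54 and 11.21 against 10.27, 10.41 and 10.28, a 2.02-fold rise (log2 1.02, SE 0.13, limma adjusted p = 5.42e-06). Cox7a2 did not pass at -0.21, with a 95% interval of -0.65 to 0.23. All 5 other ubiquitous subunits among the members (Cox5a, Cox5b, Cox6b1, Cox6c and Cox7b) fell, from Cox5a at -0.96 to Cox6c at -0.35. Cox7a2l, known as a supercomplex factor, stood at 0.01, and the testis isoforms Cox6b2 and Cox8c at -0.18 and -0.29 did not pass.

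**Figure D2:**
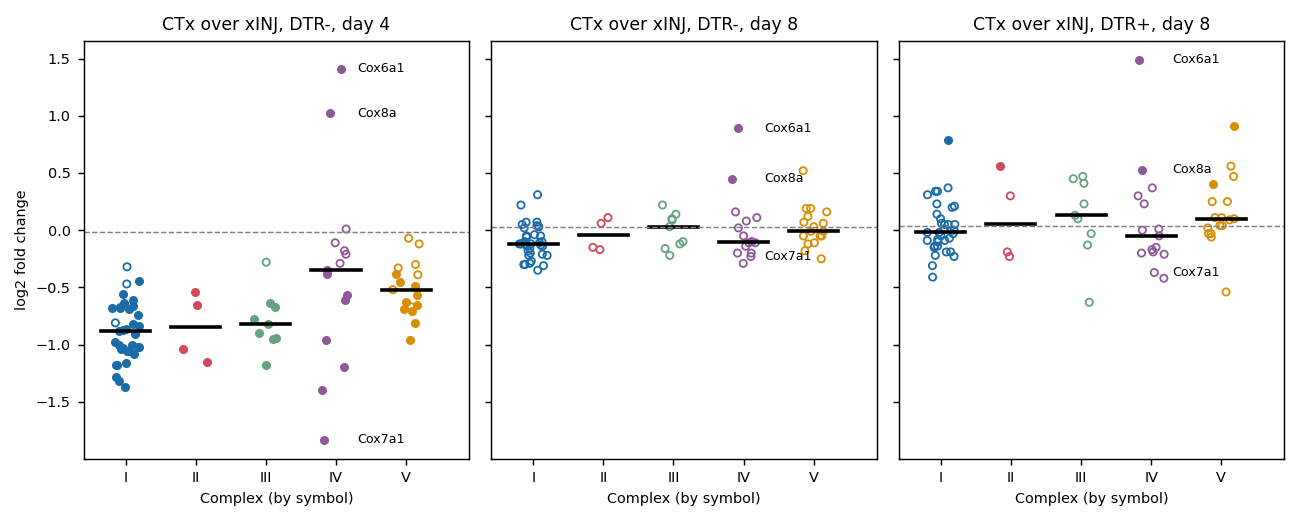
Log2 fold change of CTx over xINJ muscle for each subunit gene by complex, in DTR- mice at day 4 and day 8 and in DTR+ mice at day 8; filled points passed the limma test, open points did not, thick bars are complex medians and the dashed line is the median of all genes tested. At day 4 the complex medians run from -0.88 to -0.35, with Cox6a1 and Cox8a above 1 (with arrays centred on fast fibre markers the median of all members is 0.20), and at day 8 they lie between -0.12 and 0.13.

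With 1 DTR+ xINJ sample at day 4, DTR+ muscle is described by its values, with no test. Sdha stood at 11.29 and 11.71 in the 2 CTx samples and at 12.26 in the xINJ sample. Cox7a1 stood at 11.66 and 11.91 against 13.04, and Cox6a1 at 9.45 and 9.66 against 8.34. In each gene both CTx samples lay on the side that the DTR- CTx samples took. The DTR+ day 0 sample stood at 12.24 for Sdha, 13.23 for Cox7a1 and 8.17 for Cox6a1.

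Complex IV isoform pairs were tested as the log2 value of the muscle isoform minus that of its widely expressed partner on the same array. This difference does not move with a shift of the whole array. The part of the cell mix in it was not tested. The size of such a difference has no meaning across probes, and only its change between groups is used. Cox6a2 minus Cox6a1 was 2.05 ± 0.53 (SD, n = 3) in DTR- CTx muscle at day 4 and 4.66 ± 0.15 (SD, n = 3) in xINJ muscle. The day 8 values were 4.01 ± 0.20 (SD, n = 3) in CTx and 5.03 ± 0.44 (SD, n = 3) in xINJ muscle. In DTR+ mice it was 2.38 and 2.48 in the CTx samples at day 4 against 4.80, and 3.35 ± 0.44 (SD, n = 3) at day 8 against 4.73 and 5.37. The mean of CTx muscle was below that of xINJ muscle in every stratum of genotype and day for each of the 3 pairs. Averaged over the 4 strata, CTx muscle was lower by 1.93 for Cox6a2 minus Cox6a1 (two-sided exact stratified permutation p = 8.33e-05, adjusted over the 3 pairs 0.000125). For Cox8b minus Cox8a the difference was -1.54 (exact p = 8.33e-05, adjusted 0.000125). For Cox7a1 minus Cox7a2 it was -0.89 (exact p = 0.000167, adjusted 0.000167). The smallest share the 12000 arrangements can give is 8.33e-05.

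**Figure D3:**
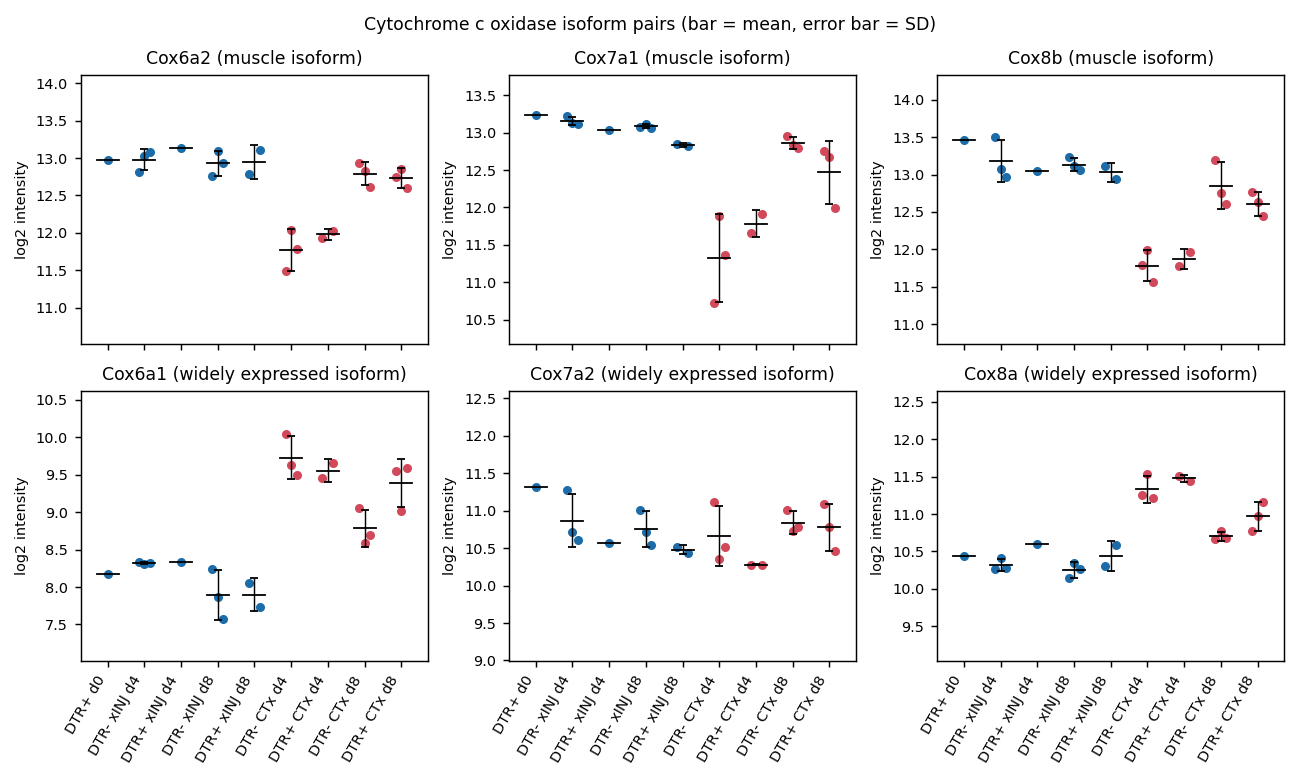
Log2 intensity of 3 muscle isoforms of complex IV (top) and their widely expressed partners (bottom) in each sample by group, red for CTx and blue for the others, with group means and SD bars; every panel spans the same log2 range. The muscle isoforms are low in CTx muscle at day 4, where Cox6a1 and Cox8a are high, and Cox7a2 shows no such rise.

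From day 4 to day 8 the differences moved back towards those of xINJ muscle. In CTx muscle, over both genotypes, Cox6a2 minus Cox6a1 rose by 1.44 (exact stratified permutation p = 0.005, adjusted 0.0075), Cox8b minus Cox8a by 1.47 (exact p = 0.005, adjusted 0.0075) and Cox7a1 minus Cox7a2 by 0.77 (exact p = 0.02, adjusted 0.02), where 200 arrangements can give no less than 0.005. The last call ended without any 1 of the 3 DTR- CTx day 8 samples (adjusted p = 0.09 each). In DTR- and DTR+ mice the rises were 1.96 and 0.92 for the first of these pairs, 1.70 and 1.24 for the second, and 1.36 and 0.19 for the third. At day 8 Cox6a2 minus Cox6a1 and Cox8b minus Cox8a had not come level with xINJ muscle. In DTR- mice they differed by -1.02 and -0.74, and in DTR+ mice by -1.70 and -0.96. Cox7a1 minus Cox7a2 differed by -0.31 in DTR- and -0.66 in DTR+ mice. In DTR- mice its groups overlapped (1.94 to 2.11 in CTx against 2.07 to 2.53 in xINJ muscle). These values had no test within a stratum.

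Cell type markers moved with the subunits at day 4. In DTR- mice, 10 of 12 mature fast fibre markers were lower in CTx muscle, with a median of -0.83, and their summed intensity was 66385 to 94997 against 139911 to 150370 in xINJ muscle. The summed intensity of the 80 members was 188507 to 211088 against 311970 to 331877. All 12 macrophage markers were higher, with a summed intensity of 35349 to 49717 against 3278 to 4431, and all 6 markers of regenerating fibres were higher, at 26823 to 29813 against 1434 to 2960. Of 8 slow or oxidative fibre markers, 4 were higher and 3 lower. Of 5 endothelial markers, 4 were lower. In bulk muscle, fewer cells of a type and less RNA per cell cannot be told apart, and the part of these cells in the subunit values was not tested. By day 8 the fast fibre markers summed to 137135 to 141435 in DTR- CTx muscle, and 0 of 12 passed against xINJ muscle (1 at an unadjusted p under 0.05), while all 12 macrophage markers were still higher.

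**Figure D4:**
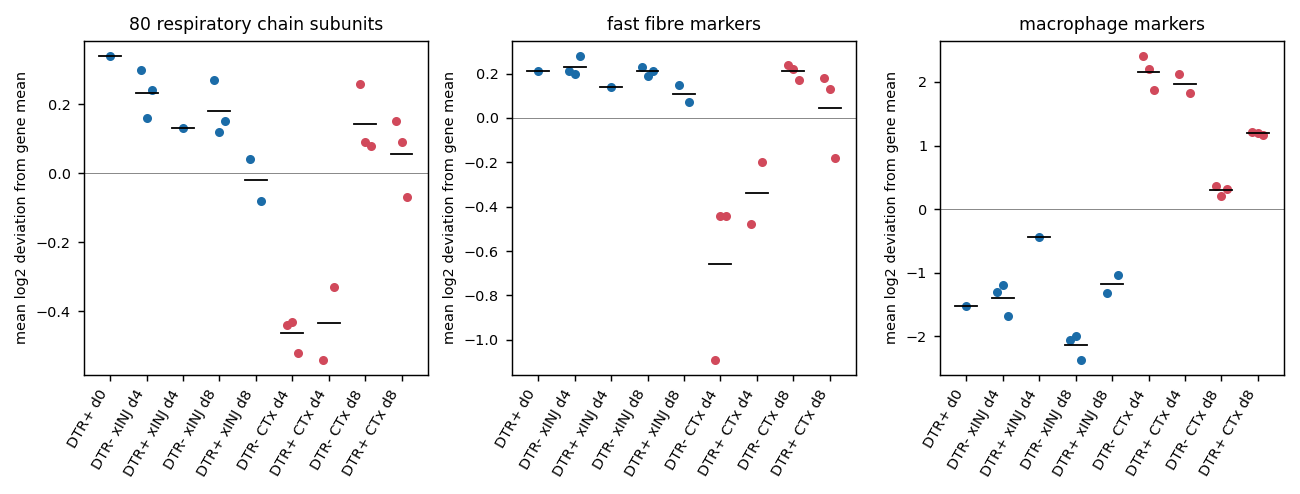
Mean log2 deviation from the gene mean for the 80 subunits, 12 fast fibre markers and 12 macrophage markers in each sample by group, red for CTx and blue for the others, with group means; the vertical scales differ. Subunits and fast fibre markers are both lowest in CTx muscle at day 4, the group in which macrophage markers are highest.

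Genes of the same pathway outside the naming rule were followed in lists. Of 16 citric acid cycle and pyruvate dehydrogenase genes, 15 were lower at day 4, with a median of -1.0. Cs, citrate synthase, stood at 11.26, 12.05 and 11.82 in CTx muscle against 12.46, 12.79 and 12.90, a log2 fold change of -1.01 (SE 0.19, limma adjusted p = 0.000195). Idh3b, a subunit of isocitrate dehydrogenase, and Pdha1, of pyruvate dehydrogenase, fell by 1.33 and 1.18. All 4 genes tested of the chain outside the rule fell: Cox4i1 by 0.81, Cox4i2 by 0.64, Ndufab1 by 0.89 and Cycs, cytochrome c, by 0.52. The call of Cycs ended without CTx replicate 1 or 2 and without xINJ replicate 1 or 2 (adjusted p = 0.0526 to 0.195). Of 41 assembly factors, 18 were lower and 0 higher (43.9% called, against 46.6% of all genes), with a median of -0.33. Atpaf1, which assembles F1, fell by 1.45, and Coa7 by 0.94. Mitochondrial ribosome genes had 30 of 77 lower and 0 higher (39.0% called, against 46.6% of all genes, with 20.5% of all genes lower). Their median was -0.35, and Mrpl18 and Mrpl55 were among the lower ones, at -0.78 and -0.90.

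Of 22 regulators of mitochondrial biogenesis, 11 were lower and 2 higher (59.1% called, against 46.6% of all genes). Ppargc1a, the coactivator PGC-1 alpha, fell by 0.97 (SE 0.27, limma adjusted p = 0.0064), a call that ended without DTR- CTx replicate 1 (-0.63, adjusted p = 0.0534) and without both doubted samples (-0.52, adjusted p = 0.143). Esrra, which encodes ERR alpha, fell by 0.69, Ppara, a fatty acid sensor, by 1.52, and Tfb2m, a factor for mitochondrial transcription, by 1.16. Of 12 carriers and creatine kinase genes, 9 were lower and 1 higher. Ckmt2, the muscle mitochondrial creatine kinase, fell by 2.23. The adenine nucleotide translocators, which exchange ATP for ADP, moved apart: Slc25a4, the muscle form, fell by 1.14 (SE 0.16, limma adjusted p = 1.11e-05) and Slc25a5 rose by 1.74 (SE 0.16, limma adjusted p = 6.86e-08). This pair was chosen after its values were seen. Slc25a5 stood at 11.62 to 12.14 in the 3 samples of CTx muscle and at 10.13, 10.18 and 10.24 in xINJ muscle, with no overlap.

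At day 8 no subunit was called lower in CTx than in xINJ muscle of DTR- mice, and 2 of 79 were higher (limma), or 2.53% called against 13.5% of all genes (10.3% higher and 3.16% lower). At an unadjusted p under 0.05, 2 were higher and 1 lower, where 25.2% of all genes passed. The median of the members was -0.08, and the 95% intervals of 77 members lay within -1 to 1. Cox6a1 stood at 9.06, 8.59 and 8.70 in CTx muscle and at 8.24, 7.87 and 7.58 in xINJ muscle, with no overlap (log2 0.89, SE 0.20, adjusted p = 0.00413). Cox8a stood at 10.66, 10.77 and 10.68 against 10.14, 10.35 and 10.27 (log2 0.45, SE 0.13, adjusted p = 0.0314). The call of Cox8a ended without any 1 of the 3 CTx samples or without xINJ replicate 1 or 3, at adjusted p-values of 0.0667 to 0.126, and with arrays centred on their medians (0.0705). Cox7a1 stood at 12.95, 12.84 and 12.79 against 13.08, 13.11 and 13.06, a log2 difference of -0.23 that did not pass. Slc25a5 was higher by 1.02 (SE 0.16).

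In DTR+ mice at day 8, 6 of 79 members were higher in CTx than in xINJ muscle and 0 lower (limma), 7.59% against 25.2% of all genes (16.7% higher and 8.49% lower). With arrays centred on their medians, which moved the median of all genes from 0.04 to -0.1, 2 were higher and 2 lower. At an unadjusted p under 0.05 the counts were 12 and 2, where 35.5% of all genes passed. The median was 0.02. Cox6a1 stood at 9.55, 9.02 and 9.59 in CTx muscle and at 8.06 and 7.74 in xINJ muscle, with no overlap (log2 1.49, SE 0.22, adjusted p = 5.56e-05). Cox8a rose by 0.53. The other 4 were Atp5k, a small membrane subunit of complex V, at 0.91, Ndufb7 of complex I at 0.79, Sdhd at 0.56 and Atp5g3 at 0.40. The number called was 2 without either DTR+ xINJ sample, and Cox6a1 was the only one of the 6 that passed without each of the 5 samples in turn.

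Within CTx muscle, 56 of 79 members rose and 2 fell from day 4 to day 8 in DTR- mice, 73.4% against 29.6% of all genes (limma, 11.6% higher and 18.0% lower), with a median of 0.66. With arrays centred on fast fibre markers 1 rose and 13 fell, with a median of -0.21 against -0.85 for all genes. This comparison shares the CTx day 4 samples with the first one, so it is not separate evidence. Medians were 0.74 for complex I (31 of 35 higher), 0.80 for complex II (4 of 4), 0.72 for complex III (6 of 9), 0.30 for complex IV (7 higher and 2 lower of 14) and 0.59 for complex V (8 of 17). Within complex I, 8 of 9 genes of the N module, 6 of 6 of the Q module and 16 of 18 of the membrane arm rose, and within complex IV the 3 muscle isoforms and 4 of 5 ubiquitous subunits. Cox7a1 stood at 10.72, 11.89 and 11.36 at day 4 and at 12.95, 12.84 and 12.79 at day 8, with no overlap, and rose most, by 1.53 (SE 0.22, adjusted p = 4.1e-05). Ndufv1 rose by 1.06, Sdha by 0.99, Uqcrfs1 by 0.91 and Atp5pb, a stator subunit of complex V, by 0.69. Cox6a1 fell by 0.94 (SE 0.20, adjusted p = 0.00115) and Cox8a by 0.63 (SE 0.13, adjusted p = 0.00145). Of the citric acid cycle genes 15 of 16 rose and of the fast fibre markers 10 of 12, while 12 of 12 macrophage markers fell, and their part in the result was not tested.

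In DTR+ mice 28 of 79 members rose and 1 fell, 36.7% against 11.0% of all genes (limma, 2.82% higher and 8.21% lower), with a median of 0.49. Medians were 0.54 for complex I (16 of 35 higher), 0.50 for complex II (2 of 4), 0.57 for complex III (2 of 9), 0.28 for complex IV (3 higher and 1 lower of 14) and 0.36 for complex V (5 of 17). With quantile normalization the counts were 46 and 0. The number called rests on few samples: it was 1 without CTx day 4 replicate 2, 19 without day 4 replicate 3, 11 without day 8 replicate 1, 16 without day 8 replicate 2 and 39 without day 8 replicate 3. With arrays centred on fast fibre markers 0 rose and 1 fell. Atp5mpl, a small membrane subunit of complex V, stood at 10.05 and 10.08 at day 4 and at 11.45, 11.05 and 11.10 at day 8, with no overlap, a rise of 1.13 (SE 0.25, adjusted p = 0.00619). Ndufa5 rose by 1.04, Uqcr10 by 0.93, Cox6a2 by 0.75 and Sdhc by 0.57, and Cox8a fell by 0.51. Each of these 6 calls ended without day 4 replicate 2. Cox7a1 stood at 11.66 and 11.91 at day 4 and at 12.75, 12.67 and 11.99 at day 8, a difference of 0.69 that did not pass (adjusted p = 0.0829) and passed without day 8 replicate 3 (0.92, adjusted p = 0.0179). Of the fast fibre markers 3 of 12 rose and of the macrophage markers 7 of 12 fell. The day 8 samples lay above the day 4 samples for 59 of 79 members and below for 1, where 14.5% and 21.3% of all genes lay so. The change was above 0 in both genotypes for 72 of 80 members, and across members the changes in the 2 genotypes, which share no samples, had a Pearson r of 0.54 and a Spearman rho of 0.42 (n = 80 genes, which share arrays).

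**Figure D5:**
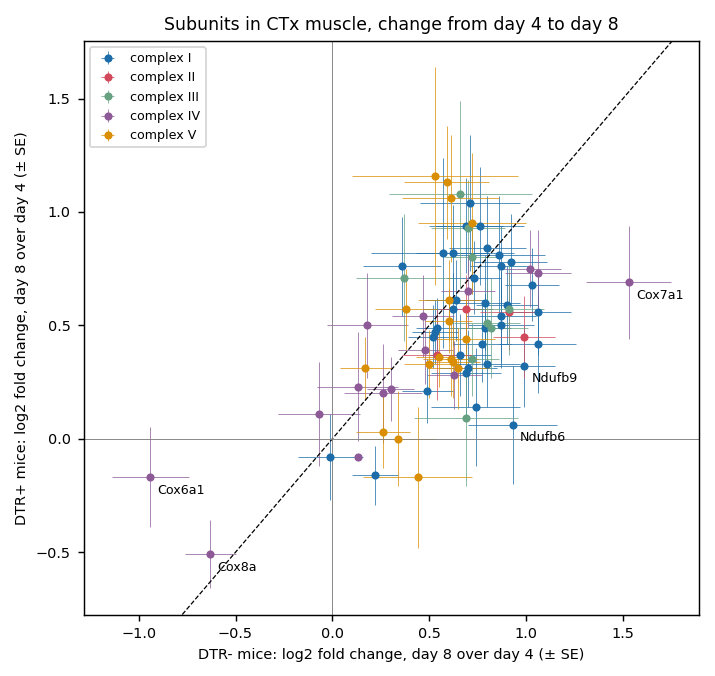
Change between the days (log2, day 8 over day 4) for each subunit gene in CTx muscle, DTR- mice on the horizontal and DTR+ mice on the vertical axis, with standard errors, coloured by complex; the dashed line marks equal change. Of the 80 genes, 72 lie above 0 on both axes, while 3 lie below 0 on both, among them Cox6a1 and Cox8a. Centred on fast fibre markers, the median is -0.21 in DTR- and 0.11 in DTR+ mice.

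In xINJ muscle of DTR- mice, 0 of 79 members passed between day 4 and day 8 (limma; 0 higher and 1 lower at an unadjusted p under 0.05), where 0.0675% of all genes passed, and 4.76% unadjusted. The median was -0.05 and the 95% intervals of 78 members lay within -1 to 1. The member with the lowest p was Cox6a1, at 8.33, 8.31 and 8.32 on day 4 and 8.24, 7.87 and 7.58 on day 8 (log2 -0.42, SE 0.20).

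The genotypes were compared within each kind of muscle, since the toxin is meant to remove regulatory T cells in DTR+ mice only. In CTx muscle at day 4, 0 of 79 members passed (limma; 0 at an unadjusted p under 0.05), where 0.0075% of all genes passed, and 2.06% unadjusted. The median was 0.06, and 75 of the 95% intervals lay within -1 to 1. Ndufs3, a Q module subunit of complex I, had the lowest p of that complex, at 11.41 and 11.79 in DTR+ and 10.56, 11.53 and 11.34 in DTR- muscle, where the groups overlapped (log2 0.46). Cox7a1 stood at 11.66 and 11.91 against 10.72, 11.89 and 11.36, again with overlap (log2 0.46). In CTx muscle at day 8, 0 of 79 passed (1 higher and 6 lower at an unadjusted p under 0.05), where 3.67% of all genes passed, and 13.2% unadjusted, with a median of -0.10 and 75 intervals within -1 to 1. Cox6a1 stood at 9.55, 9.02 and 9.59 in DTR+ and 9.06, 8.59 and 8.70 in DTR- muscle, where the groups overlapped (log2 0.60, SE 0.20, adjusted p = 0.113). With the replicate number as a block, the same difference passed (adjusted p = 0.0263) and was the only member called. It also passed without DTR+ replicate 2 (0.79, adjusted p = 0.044), as did Atp5md, a small membrane subunit of complex V, at -1.11 (adjusted p = 0.023). Atp5md stood at 11.51, 12 and 10.26 in DTR+ and 11.83, 12.15 and 12.04 in DTR- muscle, and Uqcrb of complex III at 12.28, 12.54 and 10.99 against 12.5, 12.66 and 12.61. In both, DTR+ replicate 3 lay well below the other samples. In the same comparison 8 of 12 macrophage markers and 4 of 4 T cell markers tested were higher in DTR+ muscle, at 22495 to 23568 against 11078 to 13207 summed for the macrophage list. Their part in these values was not tested.

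In xINJ muscle at day 8, 0 of 79 members passed with the genotype (limma; 0 higher and 3 lower at an unadjusted p under 0.05), where 2.6% of all genes passed, and 12.4% unadjusted. The differences lay mostly on 1 side: 74 of 80 were below 0, with a median of -0.22 against -0.01 for all genes (-0.12 against 0.09 with arrays centred on fast fibre markers). The groups did not overlap for many of them: 41 of 79 members lay lower in both DTR+ samples than in all DTR- samples, where 14.7% of all genes did. No member lay higher without overlap, where 15.3% of all genes did. The summed intensity of the members was 267449 to 277693 in DTR+ and 304012 to 321057 in DTR- muscle. Medians were -0.26 for complex I, -0.22 for complexes II, III and V, and -0.04 for complex IV. Ndufc2, an accessory subunit of complex I, stood at 12.60 and 12.56 against 12.91, 12.90 and 12.96 (log2 -0.34, SE 0.13, adjusted p = 0.245), and Sdhd at 10.98 and 10.75 against 11.28, 11.24 and 11.49 (log2 -0.47, SE 0.20, adjusted p = 0.32). Of 12 macrophage markers, 7 were higher in DTR+ muscle, and their summed intensity was 4140 to 4874 against 1948 to 2426. Their part in the differences was not tested.

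The genotype effect was also compared between days and between muscles. For the difference of the genotype effect between day 8 and day 4 in CTx muscle, 0 of 79 members passed (limma; 1 higher and 6 lower at an unadjusted p under 0.05), where 0.585% of all genes passed, and 10.4% unadjusted. The members with the lowest p were Ndufb9 at -0.67 (SE 0.24), Cox6a1 at 0.77 (SE 0.29) and Cox7a1 at -0.85 (SE 0.33). For the difference between CTx and xINJ muscle at day 8, 0 passed and 0 had an unadjusted p under 0.05, where 0.233% of all genes passed, and 6.49% unadjusted. The isoform pairs differed with the genotype by -0.09 for Cox6a2 minus Cox6a1, 0.18 for Cox7a1 minus Cox7a2 and -0.28 for Cox8b minus Cox8a, with exact stratified permutation p-values of 0.699, 0.648 and 0.0405 (adjusted 0.699, 0.699 and 0.121). These are means over 3 strata (CTx at day 4, CTx at day 8, then xINJ at day 8), which went opposite ways in the first of these pairs (0.38, -0.66 and 0.02) and in the second (0.84, -0.33 and 0.03). For Cox8b minus Cox8a they were -0.05, -0.51 and -0.29. The difference between these strata was not tested. Leaving out DTR+ CTx day 4 replicate 3 gave the last pair -0.33 with an adjusted p of 0.0488.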

How the data were processed

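Total RNA of whole muscle was hybridised to Affymetrix Mouse Gene ST arrays, 1 per sample. The deposited intensity values, 1 per probe set and on a linear scale, come from RMA run by the authors with Affymetrix Power Tools (source: the submitters' processing notes), whose version is not given in the sources used here. Log2 was taken here. Groups came from the sample titles. Of 24922 probe sets, 21425 carry a single symbol and stand for 19752 genes, and 16 members had several probe sets. The filter kept 13332 genes, those over their array's 40th percentile, which was log2 6.6 to 6.82, on 2 or more arrays.

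All 21 samples entered 1 limma fit (limma 3.58.1, R 4.3.3) with 9 group means, eBayes, and Benjamini-Hochberg adjustment within each contrast at 0.05, two-sided. Residual and prior degrees of freedom were 12 and 6.56. Intervals are at 95%. Isoform pairs were tested by exact permutation of samples within strata. On simulated data for the genotype in CTx muscle at day 8 (13332 genes), the fit recovered 30% of 50 genes changed by 0.5, 90% by 1, 80% by -1 and 100% by 2, with 15 false calls.

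Deviations of same-numbered samples correlated by 0.24 to 0.354 for the days in DTR- CTx muscle. For the genotype in CTx muscle at day 8 they correlated by 0.234 to 0.545. Only these comparisons were treated as paired, in a second fit. Where the block is given for another comparison, it is an alternative setting only. The correlations for CTx against xINJ muscle at day 8 in DTR+ mice, 0.297 and 0.313, lay in the same range, but that comparison was not treated as paired.

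Genes named are, per contrast and complex, the largest called change in each direction or the lowest p, a fixed set of catalytic and isoform genes, members that did not pass or went against their complex at day 4, and 2 genes per related list. The members, lists and contrasts were chosen with earlier results of these data known. Alternatives were median centring, quantile normalization, other filters and probe set rules, a replicate block, another day for the sample of doubtful time, and leaving out each sample.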

Additional observations from a re-analysis of the deposited data

Results flagged for a closer look

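For 3 of 79 members (3.8%, against 0.788% of all genes tested), every CTx sample of DTR- mice lay below every xINJ sample at day 4 and above at day 8. The day 8 differences did not pass (limma adjusted p = 0.252, 0.312 and 0.51 in the order given here). Lying lower without overlap at day 4 was by itself more frequent among the members (62 of 79, against 25.7% of all genes). Lying higher without overlap at day 8 was less frequent (6 of 79, against 23.5% of all genes). Ndufb7 of complex I stood at 8.99, 9.07 and 9.0 in CTx muscle against 9.79, 9.73 and 10 at day 4, and at 9.97, 9.82 and 9.88 against 9.75, 9.35 and 9.65 at day 8. Its log2 fold changes of -0.82 and 0.31 differed by 1.13. For Ndufa2 of complex I the changes were -0.56 and 0.22, a difference of 0.78. For Atp5o, a stalk subunit of complex V, they were -0.49 and 0.19, a difference of 0.68. The difference between the days was not tested for these 3.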

How the results depend on the processing

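Counts of members called lay within 1.5 times the reported ones except as follows, and the cause was not tested. CTx against xINJ muscle at day 8 gave 1 in DTR- mice with arrays centred on their medians, and in DTR+ mice 10 with quantile normalization and 10 with a replicate block. The days in DTR+ CTx muscle gave 46 with quantile normalization. The genotype in CTx muscle at day 8 gave 1 with the replicate block, and in the other paired comparison, the days in DTR- CTx muscle, the block gave 66 against 58. In the others the replicate numbers were not treated as pairs. Their same-numbered samples correlated by -0.447 to 0.468, and by 0.297 and 0.313 for CTx against xINJ muscle at day 8 in DTR+ mice. With the block, CTx against xINJ muscle at day 4 gave 68 and the days in DTR+ mice 37.

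Centring arrays on the fast fibre markers, chosen after seeing the data as was leaving out both doubted day 4 samples, gave 18 for CTx against xINJ muscle at day 4, 1 and 3 at day 8 in DTR- and DTR+ mice, 14 for the days in DTR- and 1 in DTR+ CTx muscle. The median of all members moved from -0.69 to 0.20 at day 4. Signs were followed gene by gene only for a selected part of the genes, so the lists here are not complete for the members. Among those selected, the centring turned at day 4 the sign of the called genes Atp5a1 (0.18), Atp5g1 (0.08), Atp5g3 (0.51), Cox4i1 (0.08), Cox4i2 (0.25), Cyc1 (0.11), Cycs (0.37), Esrra (0.2), Mrpl18 (0.11), Sdhc (0.24), Sdhd (0.35) and Uqcrc2 (0.22), and Ndufab1 came to 0.0. The sign also turned for 8 named genes not called before, which then passed, among them Atp5g2 (0.78), Cox7a2 (0.68), Atp5b (0.59) and Ndufa4l2 (0.57). For the days in DTR- CTx muscle the centring turned, among the selected genes, the called genes Atp5a1 (-0.26), Atp5g1 (-0.22), Atp5g3 (-0.32), Atp5pb (-0.18), Atpaf1 (-0.06), Coa7 (-0.29), Cox4i1 (-0.13), Cyc1 (-0.07), Mrpl18 (-0.34), Mrpl55 (-0.36), Ndufa4 (-0.11), Ndufs1 (-0.08), Ppara (-0.11), Ppargc1a (-0.1), Sdhc (-0.18), Sdhd (-0.33), Uqcrc1 (-0.05) and Uqcrc2 (-0.15). Of the selected genes not called before, 9 turned and passed, among them Atp5g2 (-0.7), Esrra (-0.65), Atp5b (-0.61), Cox4i2 (-0.58) and Cycs (-0.53).

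Leaving out 1 sample at a time gave 56 to 66 calls for CTx against xINJ muscle at day 4, 1 to 2 at day 8 in DTR- and 2 to 7 in DTR+ mice, 52 to 59 for the days in DTR- and 1 to 39 in DTR+ CTx muscle, and 0 to 2 for the genotype in CTx muscle at day 8 (2 without DTR+ replicate 2). It gave 0 in the other 5 contrasts. The isoform differences between CTx and xINJ muscle were -2.01 to -1.78, -0.99 to -0.75 and -1.6 to -1.37 in the order Cox6a2, Cox7a1, Cox8b. Over the days they were 1.29 to 1.53, 0.51 to 0.99 and 1.37 to 1.56, where Cox7a1 minus Cox7a2 did not pass without any 1 of the DTR- CTx day 8 samples (0.79, 0.75 and 0.77). With the genotype they were -0.19 to 0.02, 0.01 to 0.32 and -0.36 to -0.2. Signal limits the testis isoforms: Cox7b2 lay above the filter level on 0 arrays, Cox6b2 on 3 and Cox8c on 12 of 21. Saturation at the bright end was not checked.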

Other observations

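The number 1 samples stood high for a part of the members, a pattern noticed in the values after the fits. Of the 9 groups, 6 have a replicate 1 beside other replicates, and in all 6 the replicate 1 sample was the highest of its group for 12 members: Ndufa1, Ndufa4, Ndufa5, Ndufb2, Ndufs1, Uqcr11, Uqcrh, Cox7a2, Cox7a2l, Atp5e, Atp5l and Atp5mpl. For 11 members it was the highest in 0 of the 6. The gap from replicate 1 to the next sample was 0.63 to 1.62 on the log2 scale for Atp5l and 0.57 to 1.18 for Ndufb2. The DTR+ CTx day 4 group has no replicate 1. It enters the genotype comparison in CTx muscle at day 4, and the difference of the genotype effect between days. For the 12 members the genotype difference at day 4 was -0.51 to -0.06, against a median of 0.06 for all members. Between the days in DTR+ CTx muscle, 29 of 79 members were called (28 higher and 1 lower), 36.7% against 11.0% of all genes. The part of this pattern in that count and in the genotype comparisons was not tested.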
